A study of Mus musculus with 10 samples.

Results

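The MHC class II genes examined here are 7 listed mouse genes of the class II antigen presentation pathway, H2-Aa, H2-Ab1, H2-Eb1, Cd74, Ciita, H2-DMa and H2-DMb1, among 49585 genes in the deposited count tables, all 7 of which were found by symbol. They were followed in bulk RNA-seq libraries from a mouse liver cancer model in which the Rb family of cell cycle repressors is deleted by Cre recombinase, with recombined liver cells sorted by the YFP reporter that marks them. All cells of the series come from this triple knock out model, so that no library without the deletion serves as a control, and the labels used here give neither the strain, the age, nor the promoter that drives Cre. The labels describe 10 samples in 5 groups of 2, and 6 count columns could be tied by name to a labelled group: 2 TKO-tagged Sox9 libraries, 2 Sox9-derived organoid libraries and 2 Ck19-derived organoid libraries. Sorted Epcam-, Epcamhigh and Thy1+ fractions were not analysed here.

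Class II molecules present peptides taken up from outside the cell to CD4+ T cells and are best known from dendritic cells, macrophages and B cells, although epithelial cells can make them under interferon gamma. The α and β chains (H2-Aa with H2-Ab1, the I-A molecule; H2-Eb1, the β chain of I-E) assemble with the invariant chain Cd74, which fills the groove until cathepsins cut it away, and the H2-DM heterodimer (H2-DMa with H2-DMb1) then exchanges the remaining fragment for peptide. Ciita is the master coactivator: it binds no DNA itself and is recruited to class II promoters by the RFX, NF-Y and CREB factors that sit on the X and Y boxes.

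Windows that hold the cores of both boxes are shown for H2-Aa and H2-Eb1, chain genes on which the results below turn. The windows run 5′ to 3′ on each gene's own strand in the RefSeq annotation of GRCm38.p6. Capitals mark the X box core searched, GCAAC, and then the Y box core searched, TGATTGG, which holds the NF-Y motif in reverse. H2-Aa is from chr17:34287828-34288073, minus strand, and H2-Eb1 from chr17:34305617-34305866, plus strand. Each stops before the first exon of the gene as counted.
H2-Aa: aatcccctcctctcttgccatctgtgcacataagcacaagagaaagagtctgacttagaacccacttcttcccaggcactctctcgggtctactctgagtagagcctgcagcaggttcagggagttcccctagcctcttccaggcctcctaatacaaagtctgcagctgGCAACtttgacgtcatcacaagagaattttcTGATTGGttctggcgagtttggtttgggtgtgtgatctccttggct
H2-Eb1: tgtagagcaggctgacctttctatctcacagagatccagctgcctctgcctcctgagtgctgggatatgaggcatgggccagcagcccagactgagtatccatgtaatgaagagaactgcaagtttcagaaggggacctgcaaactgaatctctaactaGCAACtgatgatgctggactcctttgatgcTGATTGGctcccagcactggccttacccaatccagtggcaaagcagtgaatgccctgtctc
A search of the 250 bases upstream of the RefSeq start, on both strands, covered 8 of 11 class II genes looked up, of which 4 are members (H2-Aa, H2-Eb1, H2-DMa and H2-DMb1). The Y box core was present in 7 of these 8 genes, against 7.23% of 32851 promoter windows of the same length in the genome. Both cores were present in 5 of the 8 genes, against 2.35% of all windows, and the X box core alone is common, at 29.9% of all windows. In those 5 genes an X box core began 28 to 31 bases upstream of the Y box core. The Y box core of H2-DMb1 lay 63 to 57 bases upstream of its start, where the counted gene model already has exon sequence. The windows of H2-DMa, at chr17:34122582-34122831 and chr17:34125268-34125517, held no Y box core. They lay far upstream of the gene as counted, which starts at 34135182, so the bases next to that start were not searched. The cores do not overlap each other, and a match is a description of letters, not of binding.

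The members other than Cd74 and Ciita lie on chromosome 17 in the MHC (GRCm38, Ensembl 87 models): H2-DMa at chr17:34135182-34139101, H2-DMb1 at chr17:34153072-34160230, H2-Ab1 at chr17:34263209-34269418, H2-Aa at chr17:34282744-34287827 and H2-Eb1 at chr17:34305877-34316199. Cd74 is at chr18:60803848-60812646 and Ciita at chr16:10488178-10527564. No exon base of the MHC members is shared with another gene, whereas 0.851% of the exon bases of Cd74 are shared with Mir5107 and 2.11% of those of Ciita with Dexi. H2-DMb1 has a near-identical neighbour, H2-DMb2, so that reads matching both were lost to the mapping quality filter and the split between these paralogs is uncertain.

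The 6 libraries held 31883180 to 59664959 assigned fragments, and levels are given as CPM, the fragments of a gene scaled to the library's total. Nothing in the labels says which of the column pairs named Sox9 holds the labelled Sox9-derived organoids. The pair without a tag was taken as those, and the TKO-tagged pair, which comes from a separate count table made with the same settings, was kept apart. The TKO-tagged libraries go against an organoid label: their 7 hepatocyte markers summed to 49143 and 33438 CPM, against 275 and 627 CPM in the Sox9-derived and 259 and 288 CPM in the Ck19-derived organoid libraries. Krt19, a bile duct keratin, stood at 0.619 and 1.61 CPM in them, against 3120 and 2987 CPM in the Sox9-derived and 2453 and 1945 CPM in the Ck19-derived libraries. Epcam stood at 8.99 and 5.61 CPM in them and between 2101 and 3833 CPM in the organoid libraries. Some of the 9 epithelial markers differed less. Mean Krt8 and Krt18 were 1804 and 2443 CPM in the TKO-tagged and 4287 and 6884 CPM in the Ck19-derived pair. Mean Sox9 was 84.9 CPM in the TKO-tagged, 565 CPM in the Sox9-derived and 87.7 CPM in the Ck19-derived pair. Against the Ck19-derived pair, edgeR called 5 of the 9 lower and 0 higher, where 13.1% and 14.4% of all genes tested were. Pan-leukocyte, macrophage and endothelial markers were high in the TKO-tagged libraries too, as given beside the members. Xist was detected with 1 or 2 fragments in each TKO-tagged and Sox9-derived library and with 1923 and 1869 fragments in the Ck19-derived libraries, so sex cannot be told apart from group in any comparison with the Ck19-derived pair. Rb1 counts (4.50 to 21.8 CPM) check nothing, since no library without the deletion is at hand and the counts are not limited to deleted exons. Where nothing says that the libraries of a pair come from separate animals or cultures, p-values measure only the spread between these libraries, and with 2 per pair that spread is poorly known.

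Class II chains were abundant in the TKO-tagged libraries and near the detection limit in both kinds of organoid. H2-Aa, the I-A α chain, had 1012 and 248 CPM in the TKO-tagged libraries, against 0.0546 and 0.211 CPM in the Sox9-derived and 0.0314 and 0.0916 CPM in the Ck19-derived libraries. The organoid values rest on 2 and 7 fragments in the Sox9-derived and 1 and 3 fragments in the Ck19-derived libraries. Every TKO-tagged library thus stood above every organoid library, and the organoid pairs overlapped. Summed over the pair, the TKO-tagged libraries held 4717 times the CPM of the Sox9-derived ones (95% counting interval 2485 to 10316).

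H2-Ab1, the I-A β chain, had 1236 and 249 CPM in the TKO-tagged libraries, against 0.328 and 0.0905 CPM in the Sox9-derived and 0.408 and 0.214 CPM in the Ck19-derived libraries. The order was the same as for its partner, with a wide gap below the TKO-tagged pair and overlapping organoid pairs. Per kilobase of exon, H2-Aa stood at 71.5% and 87.1% of H2-Ab1 in the TKO-tagged libraries, so the partner chains were present at similar levels there.

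H2-Eb1, the I-E β chain, had 22.8 and 3.32 CPM in the TKO-tagged libraries, against 0.109 and 0.332 CPM in the Sox9-derived and 0.910 and 1.71 CPM in the Ck19-derived libraries. None of the pairs overlapped, and the Ck19-derived pair, at 29 and 56 fragments, lay between the others. Per kilobase, H2-Eb1 reached 2.55% and 1.84% of H2-Ab1 in the TKO-tagged libraries. These counts are against a C57BL/6 reference, and alleles of another haplotype, which for class II genes can differ much, would map less well. The part of this in the low H2-Eb1 level was not tested.

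Cd74, the invariant chain, was the most abundant member per kilobase in the TKO-tagged libraries and had the widest gap between the Sox9-derived libraries of the members seen in both. It had 2964 and 457 CPM in the TKO-tagged libraries, against 82.4 and 1.84 CPM in the Sox9-derived and 11.5 and 9.16 CPM in the Ck19-derived libraries. The Ck19-derived values lay inside the range of the Sox9-derived ones, whose replicate 1 held 3015 fragments of Cd74 and whose replicate 2 held 61. That ratio of 44.8 (95% counting interval 34.8 to 58.7) is far wider than counting error. Among the 13591 genes that averaged 1 CPM or more over the Sox9-derived pair, 1.63% were at least 16-fold higher in replicate 1 and 2.23% at least 16-fold apart in either direction, a fold chosen after the values were seen. Cd74 was the only member past that fold there. In Sox9-derived replicate 1, the 5 pan-leukocyte markers summed to 0.164 CPM, with Laptm5 and Cd52 at 0 fragments, and the 11 macrophage markers to 19.0 CPM, against 0.181 and 27.1 CPM in replicate 2. Single markers were higher in replicate 1, among them Csf1r, a growth factor receptor of macrophages, at 11.1 CPM against 2.53 CPM in replicate 2, and the B cell kinase gene Blk, at 27 against 0 fragments. The dendritic cell list summed to 9.04 CPM in replicate 1 and 0.935 CPM in replicate 2, with Zbtb46 at 6.47 and 0.0905 CPM and Batf3 at 2.51 and 0.332 CPM, while Itgax, Cd209a and Ccr7 were at 0 in both libraries. The part of these markers in the Cd74 level was not tested. Among the chains that Cd74 escorts, H2-Aa had 2 fragments in replicate 1 and 7 in replicate 2, and H2-Eb1 had 4 and 11. H2-Ab1 had 12 and 3 fragments, a CPM ratio of 3.62 whose 95% counting interval runs from 0.978 to 20.0.

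Ciita, the coactivator, was seen at more than a trace in 1 library. It had 10.3 CPM (547 fragments) in TKO-tagged replicate 1 and 0.151 CPM (9 fragments) in TKO-tagged replicate 2, against 0 and 1 fragment in the Sox9-derived and 3 and 6 fragments in the Ck19-derived libraries. TKO-tagged replicate 2 and Ck19-derived replicate 2 overlapped, at 0.151 and 0.183 CPM. A count of 0 in Sox9-derived replicate 1 allows up to 0.0820 CPM (3 fragments). A library with 9 fragments of Ciita therefore held 14819 fragments of H2-Aa and 14868 of H2-Ab1.

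H2-DMa had 64.7 and 10.6 CPM in the TKO-tagged libraries, against 2.73 and 1.06 CPM in the Sox9-derived and 3.58 and 1.68 CPM in the Ck19-derived libraries. As for the I-A chains, the TKO-tagged pair lay above overlapping organoid pairs, but the gap was much narrower. H2-DMb1, the partner chain, was ordered in another way: 49.1 and 6.52 CPM in the TKO-tagged libraries, against 1.5 and 1.66 CPM in the Sox9-derived and 25.2 and 13.6 CPM in the Ck19-derived libraries. Here the Ck19-derived values lay within the range of the TKO-tagged ones, and the Sox9-derived pair was lowest. Per kilobase, H2-DMa stood at 1.19 and 1.47 times H2-DMb1 in the TKO-tagged libraries and 1.65 and 0.576 times in the Sox9-derived libraries, against 0.128 and 0.112 times in the Ck19-derived libraries. The Ck19-derived organoids therefore carried H2-DMb1 RNA with little of its partner, of the I-A chains or of Ciita.

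**Figure D1:**
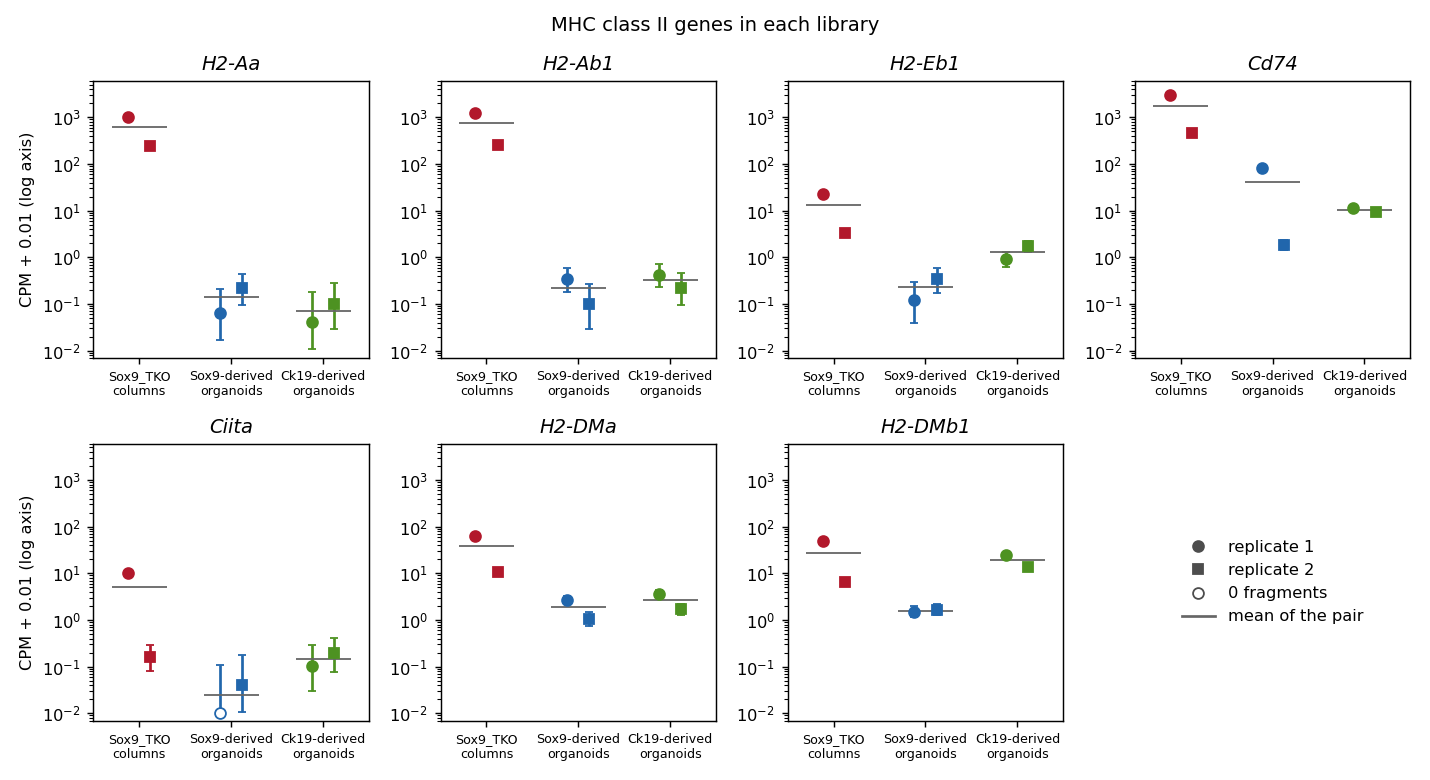
CPM plus 0.01 (log axis) of each member in the TKO-tagged Sox9 libraries, the Sox9-derived and the Ck19-derived organoid libraries. Points are libraries with 95% Poisson counting intervals and lines are pair means; H2-Aa stood at 1012 and 248 CPM in the TKO-tagged libraries and at or below 0.211 CPM in the organoid libraries, while H2-DMb1 in the Ck19-derived pair lay within the TKO-tagged range.

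The first comparison asks how the Sox9-derived and Ck19-derived organoids of this model differ. Of 16653 genes tested with edgeR's quasi-likelihood test in these 4 libraries, 95 passed an adjusted p of 0.05, which is 0.57%, with 31 (0.186%) higher and 64 (0.384%) lower in the Sox9-derived pair. Of the 7 members, 5 passed the filter on low counts and 0 were called by edgeR. At an unadjusted p under 0.05 edgeR gave 2 of them, H2-Eb1 and H2-DMb1, and 2792 of all 16653 genes tested. After adjustment DESeq2 called 1 member (H2-DMb1) and limma-voom 0, where they called 1512 and 93 of all genes tested. The median log2 fold change of the 5 members was -0.56, against 0.01 over all genes tested.

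H2-DMb1 had the smallest adjusted p of the members, with a log2 fold change of -3.62 (SE 0.47, n = 2 libraries each, edgeR adjusted p = 0.0687), and both Sox9-derived libraries lay below both Ck19-derived ones. Its side of the threshold moved with the libraries. The edgeR adjusted p was 0.00412 without Sox9-derived replicate 1 and 0.00446 without replicate 2, and it was 0.467 without Ck19-derived replicate 1 and 0.401 without replicate 2. Wherever 1 library of a pair is left out, the lone library is assumed to vary like the other libraries in the fit. H2-Eb1 had a log2 fold change of -2.55 (SE 0.89, edgeR adjusted p = 0.255). For H2-Ab1 it was -0.56 (SE 0.93, edgeR adjusted p = 0.820) and for H2-DMa -0.48 (SE 0.75, edgeR adjusted p = 0.809). Their libraries overlapped between the pairs, so no direction is shown for H2-Ab1 or H2-DMa.

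For Cd74 the log2 fold change was 2.02 (SE 1.5, edgeR adjusted p = 0.565), and it took its sign from 1 library. Without Sox9-derived replicate 1 it was -2.47 (edgeR adjusted p = 0.0245), and without replicate 2 it was 2.99 (edgeR adjusted p = 0.000432). Each of these p-values rests on a lone Sox9-derived library and on the spread of the Ck19-derived pair, so neither is a test of the Sox9-derived pair. H2-Aa and Ciita had too few fragments in the organoids to be tested.

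The comparison of the TKO-tagged libraries with the Ck19-derived organoids, fitted over all 3 pairs, called 5046 of 18337 genes with edgeR, which is 27.5%, of which 2635 were higher (14.4%) and 2411 lower (13.1%). That background is high, and the median of all genes was -0.08 on the log2 scale with TMM scaling and -0.85 when only library totals were used, so member values are read against that shift. Of the 7 members, 6 were tested and 5 were higher in the TKO-tagged pair. H2-Aa passed the low-count filter through the TKO-tagged libraries alone and so had to differ, and Ciita did not pass. The set against the Sox9-derived organoids, which shares the TKO-tagged libraries and was added after the data were seen, called 4931 genes, 26.9% of those tested, with 2695 (14.7%) higher and 2236 (12.2%) lower. There too 6 members were tested and 5 were higher.

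The I-A chains had the largest differences of the members in these fits. The log2 fold change of H2-Aa was 14.04 against the Ck19-derived pair (SE 1.31, edgeR adjusted p = 0.00231) and 13.02 against the Sox9-derived pair (SE 1.24, edgeR adjusted p = 0.00242). Since the organoid values rest on few fragments, these sizes depend on the prior count. For H2-Ab1 they were 12.02 against the Ck19-derived pair (SE 1.31, edgeR adjusted p = 0.00332) and 12.57 against the Sox9-derived pair (SE 1.34, edgeR adjusted p = 0.00319). H2-Eb1 differed by 4.14 against the Ck19-derived pair (SE 1.14, edgeR adjusted p = 0.0463) and by 6.70 against the Sox9-derived pair (SE 1.31, edgeR adjusted p = 0.0182). Against the Ck19-derived pair the H2-Eb1 call ended without TKO-tagged replicate 1, at 2.06 (edgeR adjusted p = 0.171), with either Ck19-derived library left out (edgeR adjusted p = 0.236 and 0.188) and in limma-voom (adjusted p = 0.0952). Against the Sox9-derived pair it ended without Sox9-derived replicate 1 (edgeR adjusted p = 0.0867), without replicate 2 (0.0647) and in limma-voom (0.0519).

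The chaperones followed with wide errors. Cd74 was higher by 8.19 on the log2 scale against the Ck19-derived pair (SE 2.13, edgeR adjusted p = 0.0389), and the call ended without TKO-tagged replicate 1, at 6.18 (edgeR adjusted p = 0.0807), and without either Ck19-derived library (edgeR adjusted p = 0.208 and 0.217). Against the Sox9-derived pair its value of 6.18 was not called by edgeR (SE 1.94, edgeR adjusted p = 0.0672). DESeq2 and limma-voom did call Cd74 there (adjusted p = 0.0018 and 0.0350). So did edgeR without the count filter and with the replicate block (edgeR adjusted p = 0.0134 and 0.0371). The Cd74 value was 10.67 without Sox9-derived replicate 1. H2-DMa was higher by 4.65 against the Ck19-derived pair (SE 1.10, edgeR adjusted p = 0.0303) and by 5.14 against the Sox9-derived pair (SE 1.13, edgeR adjusted p = 0.0246); without TKO-tagged replicate 1 the values were 2.73 (edgeR adjusted p = 0.0726) and 3.21 (edgeR adjusted p = 0.0510). The H2-DMa calls also ended with 1 organoid library left out, at edgeR adjusted p = 0.137 and 0.183 without either Ck19-derived library and 0.0775 and 0.112 without either Sox9-derived library, and in limma-voom (adjusted p = 0.0739 and 0.0630). H2-DMb1 was higher against the Sox9-derived pair, by 4.97 (SE 1.09, edgeR adjusted p = 0.0247), and its value against the Ck19-derived pair was 1.34, with no call (SE 0.93, edgeR adjusted p = 0.325). The call against the Sox9-derived pair ended without Sox9-derived replicate 1 (edgeR adjusted p = 0.117), without replicate 2 (0.112) and in limma-voom (0.0891). Against the Ck19-derived pair H2-DMb1 turned to -0.86 without TKO-tagged replicate 1 (edgeR adjusted p = 0.299).

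**Figure D2:**
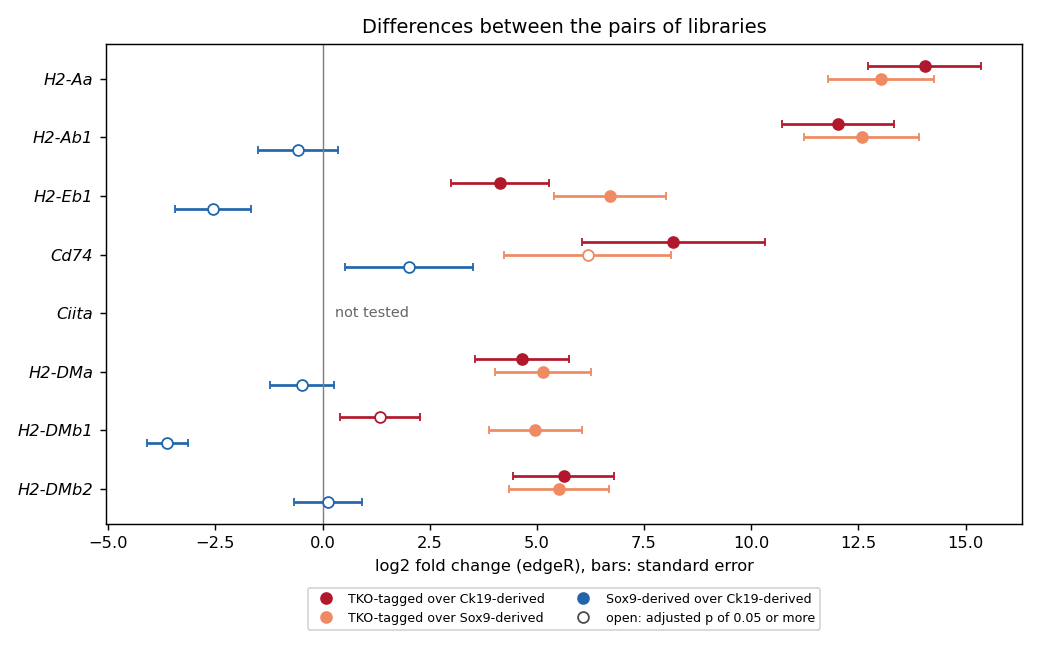
Log2 fold changes of the members and H2-DMb2 in the 3 comparisons of pairs, with edgeR standard errors; filled points have an adjusted p under 0.05. H2-Aa and H2-Ab1 lie between 12.02 and 14.04 in the comparisons of the TKO-tagged libraries, and no member is filled between the Sox9-derived and Ck19-derived organoids.

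The TKO-tagged libraries themselves were far apart in class II RNA. All 7 members were at least 4-fold higher in replicate 1 than in replicate 2, a fold chosen after the values were seen. Among the 13272 genes that averaged 1 CPM or more over that pair, 4.37% were. The ratio was 4.07 for H2-Aa and 4.96 for H2-Ab1 (95% counting interval 4.87 to 5.05). It was 6.10 for H2-DMa, 6.48 for Cd74, 6.88 for H2-Eb1 and 7.54 for H2-DMb1, and 68.1 for Ciita (95% counting interval 35.6 to 150). The I-A chains thus differed least and the coactivator most.

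Marker lists of other cell types differed less between these libraries. The 11 macrophage markers summed to 1281 CPM in replicate 1 and 1003 CPM in replicate 2, a ratio of 1.28, and the 5 pan-leukocyte markers to 190 and 112 CPM, a ratio of 1.69. The ratio was 1.74 for the 8 dendritic cell markers, 2.60 for the 7 B cell markers and 2.72 for the 7 T cell markers. For the 7 endothelial markers it was 1.37 and for the 7 hepatocyte markers 1.47. Lyz2 weighed most in the macrophage sum, with a mean of 545 CPM and an SD of 13.9 over the TKO-tagged pair. Cd68 and Csf1r of that list spread more, with means of 92.4 and 23.2 CPM and SDs of 67.6 and 16.2. Within the lists single genes went both ways: Itgax, an integrin of dendritic cells and macrophages, had 8.82 CPM in replicate 1 and 1.11 CPM in replicate 2, whereas Marco, a macrophage scavenger receptor, had 0.0188 and 18.0 CPM. Of the B cell list, 5 of 7 genes had fragments in TKO-tagged replicate 1 and 4 of 7 in replicate 2. Ms4a1, which encodes CD20, was at 0 in both, Cd22 had 182 and 0 fragments, and Cd79b, a chain of the B cell receptor, had 2.21 and 2.31 CPM. Of the dendritic cell list, 7 of 8 genes had fragments in replicate 1 and 6 of 8 in replicate 2. Xcr1, a receptor of cross-presenting dendritic cells, was at 0 in both, whereas the lectin gene Cd209a had 16.3 and 10.1 CPM and the chemokine receptor gene Ccr7 had 0.920 and 3.23 CPM. In the organoid libraries, pan-leukocyte sums lay between 0.164 and 3.39 CPM and macrophage sums between 19.0 and 85.1 CPM. Pan-leukocyte, macrophage, dendritic cell and T cell sums were, like the class II sum, higher in both TKO-tagged libraries than in any organoid library. The B cell sum was not, at 7.26 and 2.80 CPM in the TKO-tagged and 16.9 and 10.9 CPM in the Ck19-derived libraries. In the Sox9-derived libraries it was 1.26 and 0.995 CPM. Mean Zbtb46 and Batf3 were 4.13 and 2.90 CPM in the Ck19-derived pair, against 1.37 and 1.39 CPM in the TKO-tagged pair. Itgax, Cd209a and Ccr7 were higher in the TKO-tagged pair. The part of these markers in the differences was not tested. In bulk libraries, fewer cells of a type and less RNA per cell cannot be told apart.

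**Figure D3:**
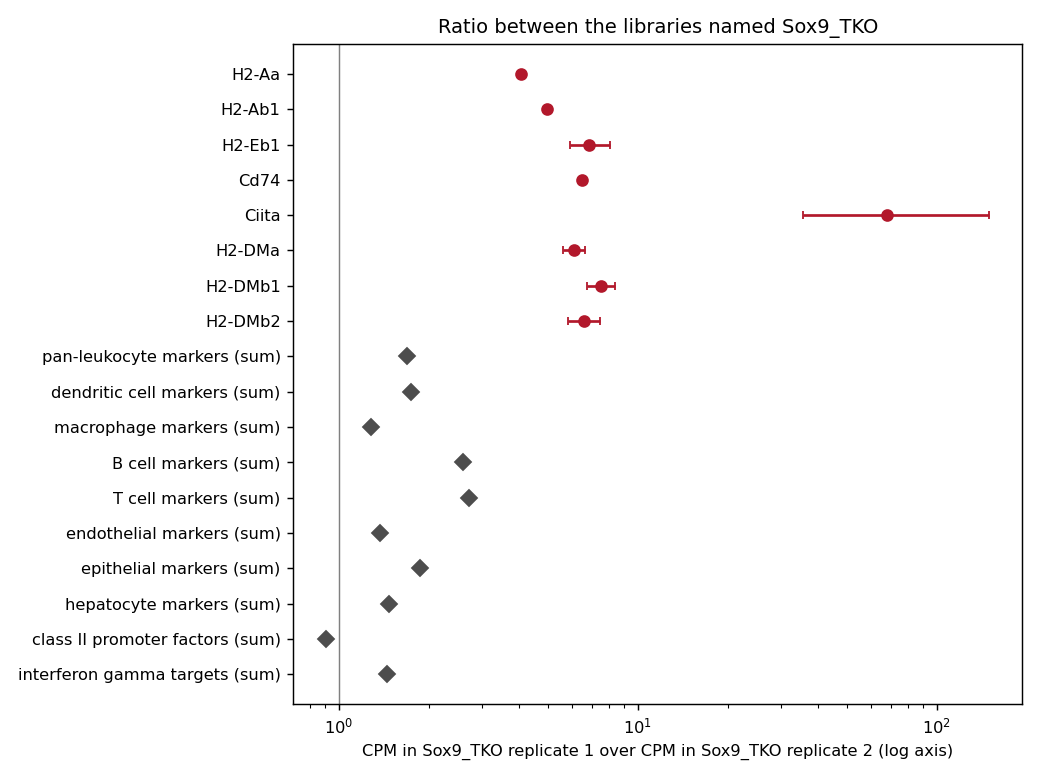
Ratio of CPM in TKO-tagged replicate 1 to CPM in replicate 2 (log axis) for the members and H2-DMb2, with 95% counting intervals, and for summed marker and pathway lists. Members range from 4.07 (H2-Aa) to 68.1 (Ciita), and the lists shown from 0.908 to 2.72.

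**Figure D4:**
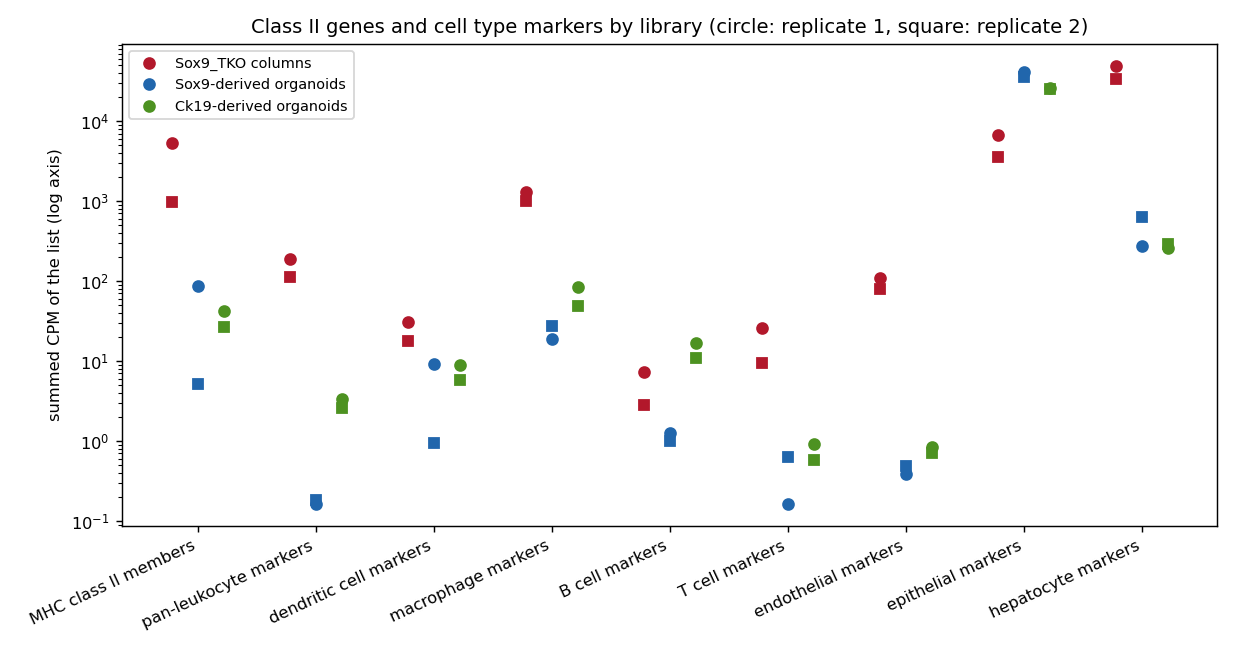
Summed CPM (log axis) of the 7 members and of marker lists in each library, coloured by pair. Hepatocyte, pan-leukocyte, macrophage and endothelial sums are higher in both TKO-tagged libraries than in any organoid library, and epithelial sums are lower.

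Other class II chains differed among themselves. H2-DMb2, the paralog of H2-DMb1, had 32.8 and 4.98 CPM in the TKO-tagged libraries, against 0.956 and 0.513 CPM in the Sox9-derived and 0.941 and 0.397 CPM in the Ck19-derived libraries. It was thus low in the organoids where H2-DMb1 was not: per kilobase it stood at 3.24% and 2.53% of H2-DMb1 in the Ck19-derived libraries, against 55.3% and 26.8% in the Sox9-derived and 58.0% and 66.3% in the TKO-tagged libraries. H2-DMb2 was higher in the TKO-tagged pair than in the Ck19-derived pair by 5.63 on the log2 scale (SE 1.17, edgeR adjusted p = 0.0216). H2-Oa and H2-Ob, the H2-DO chains that restrain H2-DM and are known from B cells, had 97 and 72 fragments in TKO-tagged replicate 1 and 0 in every other library. The related chain H2-Eb2 had 1 fragment over all 6 libraries.

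The factors that sit on class II promoters were present in every library and mostly not called. Of the 7 tested (Rfx5, Rfxap, Rfxank, Nfya, Nfyb, Nfyc and Creb1), edgeR called 0 between the TKO-tagged and Ck19-derived pairs, where 27.5% of all genes tested were called. At an unadjusted p under 0.05 edgeR gave 1 of the 7, and 7630 of all 18337 genes tested. DESeq2 called 1 of the 7 and limma-voom 0, where they called 7267 and 5755 of all genes tested. The median log2 fold change of the 7 factors was 0.07, against -0.08 over all genes. Nfyc, an NF-Y subunit, was lower in the TKO-tagged than in the Sox9-derived pair, with a log2 fold change of -1.06 (SE 0.20, edgeR adjusted p = 0.0153). It was the 1 factor of the 7 called by edgeR there, where 12.2% of all genes tested were lower. Rfx5, the RFX subunit that contacts the X box, had 3.47 and 0.436 CPM in the TKO-tagged libraries, against 9.70 and 2.17 CPM in the Sox9-derived and 9.63 and 8.34 CPM in the Ck19-derived libraries. The TKO-tagged and Sox9-derived values overlapped, and no Rfx5 difference between pairs was called by edgeR.

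Genes that process the invariant chain and its cargo were partly higher in the TKO-tagged libraries. Of 10 tested against the Ck19-derived pair, edgeR called 5 higher and 0 lower, where 14.4% and 13.1% of all genes tested were. Ctsd had means of 247 CPM in the TKO-tagged and 1060 CPM in the Ck19-derived pair, with an edgeR unadjusted p under 0.05. After adjustment edgeR did not call it and limma-voom did. Ctss, the cathepsin that makes the last cut of Cd74 in antigen-presenting cells, had 177 and 52.2 CPM in the TKO-tagged libraries, against 0.137 and 0.181 CPM in the Sox9-derived and 0.0941 and 0.244 CPM in the Ck19-derived libraries. It passed the low-count filter through the TKO-tagged pair alone and so had to differ. Ctsl, which does so in thymic epithelium, was present in all libraries, from 239 to 995 CPM, and was higher by 1.94 against the Ck19-derived pair (SE 0.55, edgeR adjusted p = 0.0482). Ctsb and Cd63 were also higher, by 1.45 and 1.40 (edgeR adjusted p = 0.0293 and 0.0459), and so was Marchf8, a ubiquitin ligase, by 1.28 (edgeR adjusted p = 0.0389). Against the Sox9-derived pair, 3 of the 10 were higher (Ctss, Ctsb and Lgmn) and 0 lower, where 14.7% and 12.2% of all genes were. Between the organoid pairs edgeR called 0 of 8, with 0 at an unadjusted p under 0.05, and DESeq2 and limma-voom called 0. Of all 16653 genes tested there, edgeR called 0.57% and gave 2792 at an unadjusted p under 0.05. DESeq2 called 1512 of them and limma-voom 93.

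Listed target genes of interferon gamma, the classical inducer of Ciita in cells that do not make class II by default, went in both directions. Of 9 genes of its signalling path, edgeR called 0 between the TKO-tagged and Ck19-derived pairs, where 27.5% of all genes tested were called. At an unadjusted p under 0.05 edgeR gave 4 of the 9, and 7630 of all 18337 genes tested. DESeq2 called 4 of the 9 and limma-voom 1, where they called 7267 and 5755 of all genes tested. Against the Sox9-derived pair 1 of the 9 was called, Socs1, a feedback inhibitor of the path, which was higher by 3.36 on the log2 scale (SE 0.60, edgeR adjusted p = 0.0141). Of 15 target genes tested, 5 were higher and 2 lower against the Ck19-derived pair, and 8 were higher and 1 lower against the Sox9-derived pair. Of all genes tested, 14.4% were higher and 13.1% lower against the Ck19-derived pair, and 14.7% and 12.2% against the Sox9-derived pair. The lower counts thus lay near or below the share over all genes. Both counts of higher genes hold Cxcl9, which passed the low-count filter through the TKO-tagged pair alone. Iigp1, an immunity-related GTPase, had 155 and 205 CPM in the TKO-tagged libraries, against 0 and 0.0603 CPM in the Sox9-derived and 9.13 and 3.60 CPM in the Ck19-derived libraries. Cxcl10, a chemokine, had 528 and 118 CPM in the TKO-tagged libraries, against 4.62 and 7.48 CPM in the Sox9-derived and 10.9 and 9.10 CPM in the Ck19-derived libraries. Tap1, the class I peptide transporter, and Irgm1 were lower against the Ck19-derived pair, by log2 fold changes of -2.81 (SE 0.29, edgeR adjusted p = 0.00283) and -1.90 (SE 0.28, edgeR adjusted p = 0.00781). Against the Sox9-derived pair Tap1 was lower too, at -1.11 (SE 0.27, edgeR adjusted p = 0.0332), and Irgm1 was not called, at 0.70 (SE 0.27, edgeR adjusted p = 0.113). Irgm1 was also the called target between the organoid pairs, at 78.8 and 52.0 CPM in the Sox9-derived and 427 and 357 CPM in the Ck19-derived libraries (edgeR adjusted p = 0.0467).

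Among co-stimulatory and checkpoint ligands, 1 of 7 tested was higher against each organoid pair, where 14.4% (Ck19-derived) and 14.7% (Sox9-derived) of all genes tested were. This was Cd86, a ligand that antigen-presenting cells offer to T cells, which passed the low-count filter through the TKO-tagged pair alone and so had to differ. It stood at 5.82 and 4.17 CPM in the TKO-tagged libraries, against 0 in both Sox9-derived libraries and 0 and 0.0305 CPM in the Ck19-derived libraries. Cd80, its relative, was at 0.357 and 0.235 CPM in the TKO-tagged libraries, against 2.76 and 0.181 CPM in the Sox9-derived and 6.93 and 6.78 CPM in the Ck19-derived libraries, with no call in any comparison by edgeR and a call against the Ck19-derived pair by limma-voom. Tnfsf9, a co-stimulatory ligand of the TNF family, had 1.95 and 0 CPM in the TKO-tagged libraries, against 71.5 and 53.5 CPM in the Sox9-derived and 77.7 and 43.9 CPM in the Ck19-derived libraries. Both TKO-tagged values lay below all organoid values, at log2 fold changes of -5.15 against the Ck19-derived pair (SE 1.64, edgeR adjusted p = 0.0678) and -5.17 against the Sox9-derived pair (SE 1.64, edgeR adjusted p = 0.0692), and limma-voom called both.

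The genes most alike to each member were looked for among the 14503 genes that averaged 1 CPM or more, by Pearson correlation of log2(CPM + 1) over the 6 libraries. With 6 points, and with the TKO-tagged pair far from the rest, such values are high for many genes and serve as a description. H2-Aa was most like Myct1, Sult2a1 and Mup19 (each r = 1.000), and H2-Ab1 most like Slc11a1, Btnl9 and Mbl2 (each r = 1.000). These neighbours stood between 2.70 and 192 CPM in the TKO-tagged libraries and at or near 0 in the organoids. Hepatocyte genes such as Mup19 and Mbl2 are among them. H2-Aa itself stood at rank 51 among the genes most like H2-Ab1 (r = 0.999). P2ry14 and Ptafr were among the genes most like Ciita (r = 0.999 each), and both were above 1 CPM in TKO-tagged replicate 1 alone. H2-DMa was most like H2-DMb2 (r = 0.991), then Cidec and Ifi203, and H2-Eb1 most like Lbh, Skap1 and Gm10175. Cd74 was most like Mest, Plekho1 and Glipr2 (r = 0.996, 0.996 and 0.990), whose levels were likewise higher in replicate 1 of the Sox9-derived pair. H2-DMb1 was most like Muc13, Esd-ps and Iqsec2, and its correlation with H2-Aa was 0.483, against 0.926 for H2-DMa.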

How the data were processed

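Bulk RNA-seq fragments were assigned to genes of Ensembl 87 (GRCm38) by the authors, using featureCounts v1.5.0-p3, unstranded, for primary alignments of mapping quality 10 or more, per the file headers; the deposited values are raw counts per gene. The submitters' processing notes also name STAR 2.5.4b, edgeR and limma. Low mapping quality took 33.2% to 40.9% of fragments per library. The tables hold 10 count columns, and 4 of them, tied to no labelled sample, stayed out of every step. Genes without a symbol were tested but are not named.

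CPM used library totals (31883180 to 59664959 fragments), and CPM per kilobase the deposited exon lengths. Intervals are exact 95% Poisson or binomial ones and, like the floor of 3 counts for a count of 0, cover counting error only. edgeR 4.0.16 (R 4.3.3; TMM, a minimum count of 10, quasi-likelihood test, Benjamini-Hochberg adjustment over all genes tested) gave the fold changes; scripts were tested on simulated data. The main fit held the 4 organoid libraries, and comparisons with the TKO-tagged pair all 6. DESeq2 1.42.0, limma-voom 3.58.1, other scalings, no filter, each library left out and a replicate block were alternatives. Replicate numbers do not pair the libraries. Replicates differed far beyond sampling noise (chi-square per gene of 62.8 or more), so all were counted separately.

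The members and gene lists were chosen with earlier results of these data known. Named genes are the 7 members, in each other list the called genes of largest fold change (at most 4 one way and 2 the other) or, with none called, the most abundant, and the 3 genes most alike to each member. A few genes under this rule or in the lists are not reported here. Rfx5, Nfyc beyond that rule, Cd80, Marco, Itgax, Xcr1, Zbtb46, Batf3, Csf1r, Cd68, Lyz2, Ctsd, Blk, Cd22, Cd79b, Cd209a, Ccr7, Ms4a1, Tnfsf9, Cxcl9 and H2-DMb2 details were chosen after their values were seen. Motifs were searched in RefSeq promoter windows (GRCm38.p6).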

Additional observations from a re-analysis of the deposited data

How the results depend on the processing

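Counts of called genes depended on the setting. Between Sox9-derived and Ck19-derived organoids 95 genes were called, against 1512 with DESeq2, 506 without the count filter, 5190 with the TKO-tagged columns as the Sox9-derived pair and 14 in the fit of all 3 pairs, an alternative chosen after the data were seen. Leaving out 1 library gave 0 to 1394 calls, with 0 without either Ck19-derived library. With the replicate block 0 genes were called there (2665 at an unadjusted p under 0.05), 3938 for the TKO-tagged against the Ck19-derived pair and 3988 against the Sox9-derived pair. Replicate differences correlated by 0.0275 to 0.0498 between pairs, so the numbers do not pair the libraries.

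For the TKO-tagged against the Ck19-derived pair, the counts ran from 1320 to 4546 with 1 library left out. Against the Sox9-derived pair they ran from 2474 to 4736, and 7405 genes were called with library totals only. Library totals moved the split to 1810 higher and 5564 lower against the Ck19-derived pair (2635 and 2411 with TMM), and to 1957 higher and 5448 lower against the Sox9-derived pair (2695 and 2236 with TMM).

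Signs of members turned as follows. Between the organoid pairs, the TKO-tagged columns as the Sox9-derived pair gave 11.99 for H2-Ab1, 4.11 for H2-Eb1, 4.61 for H2-DMa and 1.30 for H2-DMb1. With 1 library left out, values there ran from -1.72 to 0.071 for H2-Ab1, -1.30 to 0.18 for H2-DMa and -2.47 to 2.99 for Cd74. For the TKO-tagged against the Ck19-derived pair, H2-DMb1 ran from -0.86 (without TKO-tagged replicate 1) to 2.19. The causes were not tested. In both comparisons of the TKO-tagged pair, results were counted per member, alternative setting and comparison. Calls of H2-Eb1, Cd74, H2-DMa and H2-DMb1 were lost in 23 such results and gained in 6. Over all members tested, 102 such results kept their sign and side of the threshold, and 1 turned in sign. With 2 libraries a pair, fragments under 10 and a mapping filter that drops shared paralog reads limit the values.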
